A study of Rattus norvegicus with 20 samples.

Results

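The choroid plexus of untreated female Zucker rats was compared between obese and lean animals, with 6 obese (fa/fa, rats 7 to 12) and 6 lean (+/fa, rats 1 to 6) rats among the 20 rats of the series. The 12 rats were 16 weeks old, were given normal chow and received no injection, and each gave 1 library of the lateral and 4th choroid plexuses. The obese rats lack a working leptin receptor because both copies of their gene carry the fa mutation, whereas the lean rats carry 1 mutant copy. Both groups thus carry fa, and the mutation and the obesity that goes with it cannot be told apart. The other 8 rats were 4 lean (+/fa) given sesame oil (Lean + VEH) and 4 obese (fa/fa) given testosterone (Obese + TT). They were also female Zucker rats of 16 weeks. They share no animal with the 12 untreated rats and served for a comparison with the untreated contrast. Of the 32883 genes in the deposited tables, 11986 had a mean of at least 1 TPM (the unit of the tables, a relative abundance corrected for transcript length) over the 12 rats and are described here.

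The choroid plexus is a fold of vascular tissue in each brain ventricle, covered by a single layer of epithelial cells that secrete the cerebrospinal fluid (CSF). Its epithelium moves ions and water into the ventricle, exports proteins such as transthyretin and cystatin C, and seals the blood side from the fluid side by tight junctions. Beneath it lies a stroma with fibroblasts, leaky capillaries and macrophages. Leptin, the satiety hormone made by fat tissue, binds a receptor that is abundant in this tissue.

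The defining markers of the labelled tissue were abundant in every rat. Ttr, the gene of transthyretin, took between 31.2 and 39.0% of all TPM in the lean rats and between 32.3 and 39.3% in the obese rats, and all 25 genes listed for the epithelium were above the minimum. The list summed to 325110.0 to 401729 TPM in lean and 336548 to 405093 TPM in obese rats. The endothelial marker Plvap (39.95 to 51.1 TPM in lean and 43.4 to 60.3 TPM in obese rats) and the fibroblast marker Pdgfra (21.3 to 29.6 TPM in lean and 22.5 to 35.1 TPM in obese rats) were present as well. The lists of 22 macrophage, 20 lymphocyte and 22 neuron genes had 0 symbols available, so these cells could not be followed. In bulk tissue, fewer cells of a type and less RNA per cell cannot be told apart.

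Gene names limited what could be said. The deposited tables give Ensembl identifiers, and symbols were available for 2564 of the 11986 genes tested. Of these, 2244 were named in lists ordered by abundance, so that their names do not depend on how they differed (genes named by level). They are therefore abundant genes. A further 225 were named only because the study had called them different between these same 12 rats, and 95 because it had called them in the injected rats. Counts for gene lists below cover the genes named by level unless said otherwise, and a gene of the 225 is marked as study-called, since its difference is no independent evidence.

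The leptin receptor gene was examined first, since it carries the mutation. Lepr (ENSRNOG00000023664) was at 32.2 to 112 TPM (median 37.7) in lean and 29.2 to 40.3 TPM (median 30.9) in obese rats. Lean rat 1 stood at 112 TPM and lean rat 2 at 65.5 TPM, while the other 4 lean rats lay within the range of the obese rats. The log2 fold change was -0.52 (SE 0.25, adjusted p = 0.527), and an exact two-sided permutation test gave p = 0.0887. The fa mutation changes the protein and not necessarily the amount of RNA, so this abundance does not check the genotype.

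The study-called genes had passed a false discovery rate of 0.05 in the study's own test, a count model. In limma on log2 TPM, a different test, no gene reached an adjusted p-value below 0.05 (Benjamini-Hochberg over 11986 genes, 0.0% called). Igsf1, Mmel1, RGD1561113 and the unnamed ENSRNOG00000001173 came closest, all 4 at an adjusted p of 0.0601. At an unadjusted p below 0.05 there were 1185 genes (9.89%), of which 735 (6.13%) were higher and 450 (3.75%) lower in the obese rats, where about 599 would be found with no difference in any gene. Higher genes made up 62.0% of the 1185, but 51.7% after quantile normalization. Among the genes named by level, 78 (3.48%) were higher and 126 (5.61%) lower at this level, and these shares are the background for the lists below. They hold for the main fit only. The lists and their members were chosen with earlier results of these data known. A list's share beside this background is therefore a description and no test. Counts over all genes also changed under other scalings and without single rats, as given in the last section. The median log2 fold change was 0.02 over all genes and 0.00 over the genes named by level.

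The differences were small. Only 103 genes differed by more than 1 on the log2 scale and 388 by more than 0.5, with a median standard error of 0.11. The direction differed with abundance. Among the 5961 genes below 10 TPM, 425 were higher and 187 lower at an unadjusted p below 0.05, whereas among the 898 genes at 100 TPM or more 42 were higher and 63 lower. The obese and lean rats did not separate on the leading principal component (17.0% of the variance), where obese rat 12 lay farthest out at 35.2 and the lean rats between -17.7 and 12.8. On the next (13.0%), obese rats 7, 8, 9 and 12, at 1.75 to 36.2, lay above every lean rat, at -19.9 to 0.432. Obese rats 10 and 11, at 0.0779 and -20.0, did not. On the third (11.4%), 5 of the 6 obese rats, at -20.1 to -5.60, lay below every lean rat, at -4.21 to 27.6, and obese rat 7 stood at 6.01.

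In 65 genes (0.542% of those tested) every obese rat lay on one side of every lean rat, 37 (0.309%) higher and 28 (0.234%) lower. Of these 65, 33 had no symbol. The plot of 8 of these genes by rat shows gaps of different width.

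**Figure D1:**
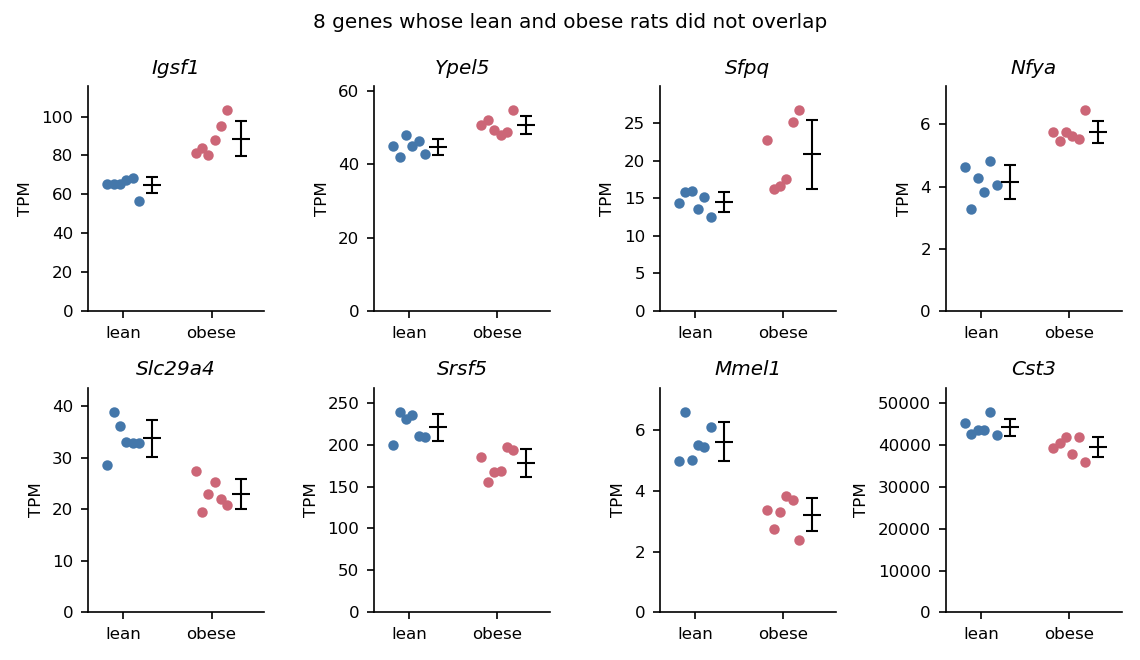
TPM per rat (y axis, from 0) of 8 genes in 6 lean (blue) and 6 obese (red) rats, with the mean and SD beside the points. The upper 4 were higher and the lower 4 lower in every obese rat, and the gap between the groups was wide in Igsf1, Nfya and Mmel1 and narrow in Sfpq, Ypel5, Srsf5 and Cst3.

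Among the genes higher without overlap, Igsf1 led. Igsf1 (ENSRNOG00000007600), which encodes an immunoglobulin superfamily membrane protein needed for normal thyroid hormone regulation in the pituitary, was at 56.8 to 68.5 TPM (median 65.4) in lean and 80.4 to 103 TPM (median 85.8) in obese rats, a log2 fold change of 0.45 (SE 0.07, adjusted p = 0.0601). Lean rat 6 was the lowest of all, at 56.8 TPM, and the others of its group lay between 65.1 and 68.5 TPM. Ypel5, a member of the yippee-like family, was at 42.0 to 47.9 TPM (median 44.9) in lean and 48.1 to 54.8 TPM (median 50.0) in obese rats, with a log2 fold change of 0.18 (SE 0.06, adjusted p = 0.309). These were the 2 genes named by level among those higher without overlap, 0.0891% of the 2244.

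The other named genes higher without overlap were low in abundance and all but Cdc25b were study-called. Nfya, which encodes a subunit of NF-Y, the factor that binds CCAAT boxes, was at 3.28 to 4.81 TPM (median 4.17) in lean and 5.47 to 6.46 TPM (median 5.68) in obese rats (log2 fold change 0.47, SE 0.10, adjusted p = 0.175). Sfpq, a splicing and paraspeckle protein, was at 12.5 to 15.9 TPM in lean and 16.2 to 26.7 TPM in obese rats, with a log2 fold change of 0.49. Obese rats 7, 11 and 12 reached 22.8 TPM or more in Sfpq, and the other 3 stood at 17.6 TPM or less. Ahnak, a very large scaffold protein, was at 2 to 2.53 TPM in lean and 2.88 to 6.34 TPM in obese rats (log2 fold change 0.75). The ephrin receptor gene Ephb3 was at 0.63 to 1.21 TPM in lean and 1.33 to 1.74 TPM in obese rats, and the phospholipase C gene Plcd3 was at 2.06 to 3.2 TPM in lean and 3.56 to 6.83 TPM in obese rats. Tbc1d1, a Rab GTPase-activating protein that acts downstream of insulin in glucose transporter traffic, was at 7.73 to 10.2 TPM in lean and 10.3 to 14.0 TPM in obese rats (log2 fold change 0.34). Slc39a5 (a zinc importer), Abi3, Sox13 and Arhgap29 had log2 fold changes of 0.48, 0.76, 0.35 and 0.27. Cdc25b, a cell cycle phosphatase named through the injected rats, was at 0.75 to 1.29 TPM in lean and 1.31 to 1.84 TPM in obese rats. The margin was narrow in Arhgap29, where the highest lean rat was at 5.15 TPM and the lowest obese rat at 5.16 TPM.

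Among the genes lower without overlap, 8 were named by level (0.357% of 2244). The leading one was Slc29a4 (ENSRNOG00000001115), a transporter of monoamines and nucleosides, with a log2 fold change of -0.55 (SE 0.09, adjusted p = 0.0674) and at 28.5 to 39.0 TPM (median 33.04) in lean and 19.5 to 27.4 TPM (median 22.6) in obese rats. Slc20a2, a sodium-dependent phosphate transporter, was at 87.7 to 129 TPM (median 103.8) in lean and 74.8 to 87.6 TPM (median 84.0) in obese rats (log2 fold change -0.34, SE 0.08, adjusted p = 0.183). Its highest obese rat and lowest lean rat were almost level. Srsf5, a serine- and arginine-rich splicing factor, was at 199 to 239 TPM (median 219.9) in lean and 156 to 197 TPM (median 177) in obese rats (log2 fold change -0.31, SE 0.07, adjusted p = 0.182). Canx and Cst3 are described with their groups below. The remaining 3 were LOC100910978 (38.0 to 45.4 TPM in lean and 29.6 to 34.3 TPM in obese rats) and 2 transcripts whose symbols are taken from the rat mitochondrial genome sequence, AY172581.24 (210.1 to 406 TPM in lean and 142 to 209 TPM in obese rats) and AY172581.9 (403 to 448 TPM in lean and 321 to 395 TPM in obese rats).

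The study-called genes lower without overlap began with Mmel1 (ENSRNOG00000012593), a membrane metallopeptidase related to neprilysin, which was at 4.98 to 6.62 TPM (median 5.5) in lean and 2.4 to 3.83 TPM (median 3.35) in obese rats (log2 fold change -0.79, SE 0.12, adjusted p = 0.0601). Eva1a, a membrane protein linked to autophagy, was at 4.5 to 7.91 TPM (median 6.96) in lean and 1.95 to 4.3 TPM (median 3.3) in obese rats, and its log2 fold change of -0.999 (SE 0.18, adjusted p = 0.098) was the farthest from 0 among the named genes without overlap. Mpzl2, an epithelial adhesion protein, was at 22.0 to 27.6 TPM (median 24.8) in lean and 12.1 to 19.8 TPM (median 16.3) in obese rats (log2 fold change -0.64, SE 0.12, adjusted p = 0.098). Rpe65, the isomerase of the retinoid cycle, was at 4.62 to 6.73 TPM in lean and 2.61 to 4.12 TPM in obese rats, and Cfap45, a protein of the ciliary axoneme, was at 5.44 to 8.5 TPM in lean and 3.46 to 5.32 TPM in obese rats. Cxcl17, a mucosal chemokine, was at 12.5 to 22.0 TPM in lean and 6.94 to 12.4 TPM in obese rats, where the highest obese and the lowest lean rat lay next to each other. Prim1 (DNA primase), Sec14l2 (a tocopherol-binding protein), Zfand2a (an arsenite-inducible proteasome-associated protein), Cacna2d2 (a calcium channel subunit) and Fhod3 (a formin) had log2 fold changes of -0.49, -0.41, -0.32, -0.49 and -0.47.

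Several abundant genes with overlapping groups also had small p-values, and they were picked after their values had been seen. RGD1561113 (ENSRNOG00000022681) was at 51.7 to 108 TPM (median 57.0) in lean and 107 to 140.1 TPM (median 120.3) in obese rats (log2 fold change 0.92, SE 0.15, adjusted p = 0.0601). Its lean rat 2, at 108.5 TPM, lay inside the obese range and the other lean rats at no more than 63.4 TPM. Without lean rat 2, the lean rat that went against the difference, the adjusted p-value was 4.02e-05. That value follows from which rat was left out and is no further evidence. Leaving out any other single rat did not bring the gene below 0.05. Vim, the gene of the intermediate filament vimentin, was at 40.4 to 51.5 TPM in lean and 47.3 to 81.3 TPM in obese rats. Lmna, of the nuclear lamin A, was at 28.4 to 39.9 TPM in lean and 33.3 to 71.4 TPM in obese rats, and the galectin gene Lgals1 was at 151 to 197 TPM in lean and 177 to 216 TPM in obese rats. The obese rats reached higher maxima in each of them, while their lowest rats lay in the lean range. Phlda3, a p53-responsive inhibitor of Akt, was at 48.0 to 74.7 TPM in lean and 58.8 to 88.6 TPM in obese rats. In the other direction, Lmx1a, a transcription factor of the dorsal midline from which the choroid plexus forms, was at 53.9 to 68.3 TPM in lean and 41.1 to 55.1 TPM in obese rats. Itgb8, the integrin that activates latent TGF-beta, was at 47.9 to 72.1 TPM in lean and 26.3 to 58.2 TPM in obese rats and Ndrg2 was at 274 to 312 TPM in lean and 220.1 to 284 TPM in obese rats. Their log2 fold changes were 0.42 for Vim, 0.52 for Lmna, 0.25 for Lgals1, 0.47 for Phlda3, -0.33 for Lmx1a, -0.61 for Itgb8 and -0.25 for Ndrg2.

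**Figure D2:**
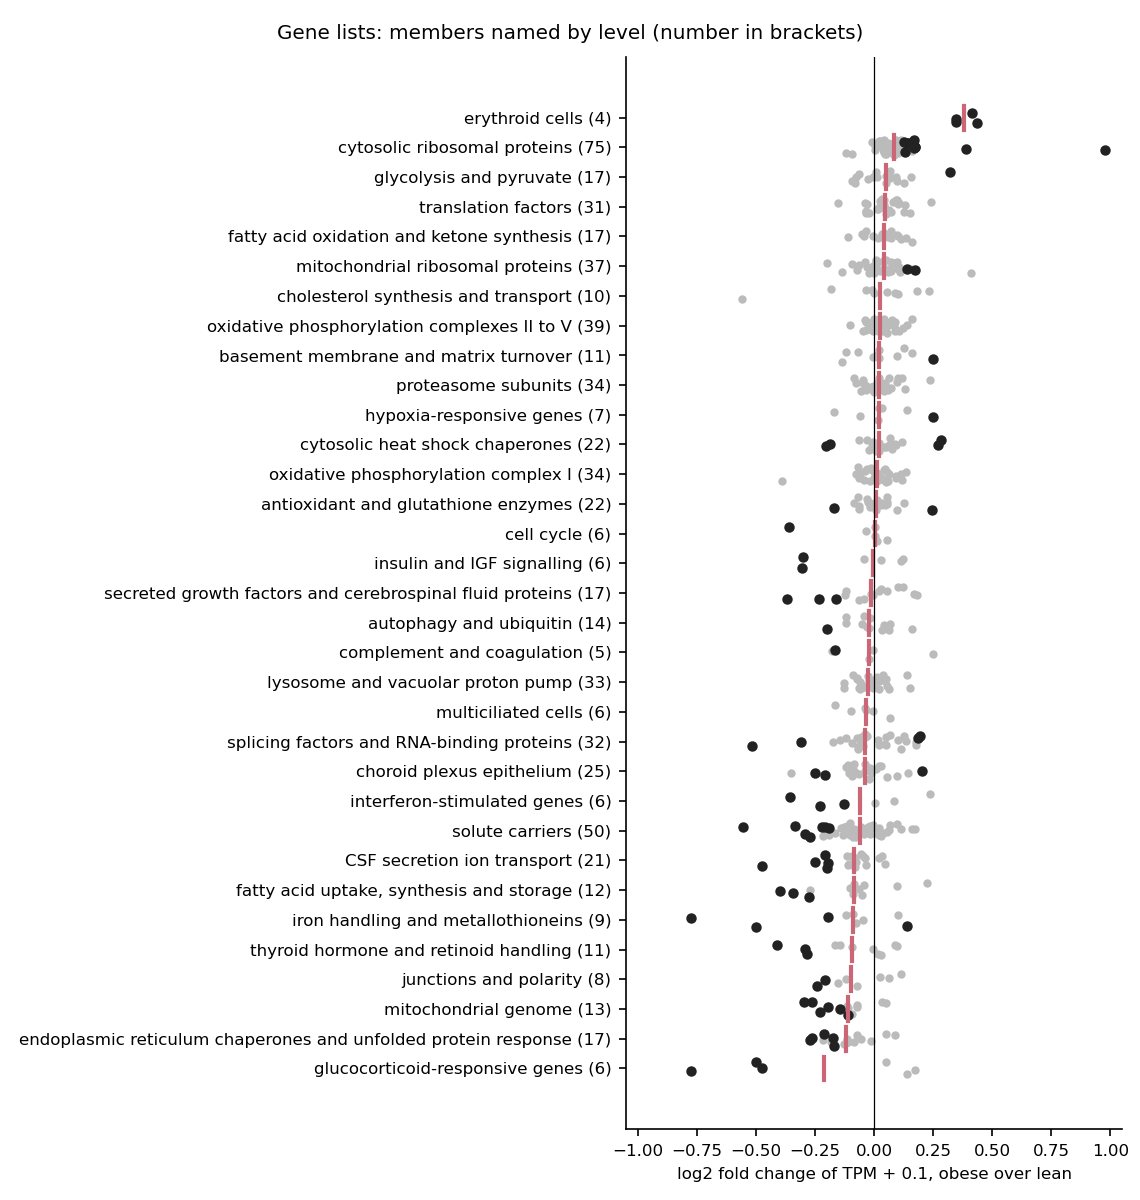
Log2 fold change (x axis, obese over lean) of each gene named by level in 33 lists (y axis, number of genes in brackets). Black points had an unadjusted p below 0.05, grey points did not, and the red bar is the list's median, which ran from -0.21 for glucocorticoid-responsive genes to 0.38 for the erythroid genes.

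Of the 25 epithelial genes, 1 was higher and 2 were lower at an unadjusted p below 0.05, with a median log2 fold change of -0.04 against 0.00 over all genes named by level. The homeobox gene Msx1 was at 269 to 324 TPM (median 294) in lean and 283 to 408 TPM (median 330.2) in obese rats, Ca12, a membrane-bound carbonic anhydrase, was at 398 to 541 TPM (median 484) in lean and 373 to 474 TPM (median 386) in obese rats, and Slc4a5, the bicarbonate cotransporter NBCe2, was at 378 to 444 TPM (median 414) in lean and 289.7 to 432 TPM (median 353) in obese rats. The groups overlapped in all 3 genes, and in Ca12 only obese rat 11, at 474 TPM, reached the lean rats. When single rats were left out, the higher count was 0 without lean rats 1, 3, 4 or 6 or obese rats 7, 8 or 11, and the lower count was 1 without obese rat 8 and 4 without obese rat 11. Ttr itself had a log2 fold change of 0.03 (SE 0.06, adjusted p = 0.92). Of the 6 multiciliated cell genes named, 0 passed in either direction.

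Among the stromal genes, those named by level gave 0 of 4 fibroblast genes, 0 of 1 endothelial gene and 0 of 3 mural genes at an unadjusted p below 0.05. The study-called members pointed both ways. The endothelial transcription factor Sox18 was at 2.4 to 5.12 TPM (median 3.28) in lean and 4.85 to 8.75 TPM (median 6.43) in obese rats and the TGF-beta co-receptor endoglin, Eng, was at 12.2 to 17.9 TPM in lean and 16.6 to 23.2 TPM in obese rats. The collagen gene Col1a1 was at 3.42 to 5.84 TPM in lean and 4.93 to 9.57 TPM in obese rats and Col6a1 was at 4.45 to 5.86 TPM in lean and 5.01 to 9.36 TPM in obese rats, while the matrix gene Dpt (dermatopontin) was at 34.1 to 42.9 TPM in lean and 26.8 to 36.3 TPM in obese rats. Tagln, of smooth muscle, was at 47.8 to 63.3 TPM in lean and 48.8 to 109 TPM in obese rats, with a spread in the obese rats that covered the lean range. Ermn, known as a cytoskeletal gene of oligodendrocytes, was at 24.3 to 44.3 TPM (median 40.2) in lean and 13.7 to 29.1 TPM (median 18.6) in obese rats (log2 fold change -0.86, SE 0.20, adjusted p = 0.182, study-called). Lean rats 5 and 6 and obese rats 9 and 11 shared the middle of that range.

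The erythroid list was the one that departed farthest upwards. All 4 globin genes named by level (Hba-a1, Hba-a2, Hbb and Hbb-bs) were higher at an unadjusted p below 0.05, with log2 fold changes of 0.35, 0.41, 0.43 and 0.35 and a lowest adjusted p of 0.283. Hba-a2 was at 637 to 1012 TPM (median 829.4) in lean and 837 to 1399 TPM (median 1113) in obese rats, and Hbb was at 783 to 1414 TPM (median 963) in lean and 982 to 1789 TPM (median 1454) in obese rats. Together the globins took between 0.337 and 0.591% of all TPM in the lean and between 0.44 and 0.757% in the obese rats, with obese rats 7, 9 and 10 above every lean rat and obese rats 8, 11 and 12 within the lean range. The 4 genes are near-identical copies within 2 families, so reads may be split among them. With 3 of the other scalings, and without lean rats 1, 3 or 5 or obese rats 7, 9 or 10 one at a time, 2 of the 4 passed. Without lean rats 1 and 2, 1 of the 4 passed, and without obese rats 7 and 12, all 4 did. Globin RNA comes with blood left in the tissue, and its part in the other results was not tested.

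Genes of protein folding differed in both directions. In the endoplasmic reticulum, secreted and membrane proteins are folded with the help of BiP (Hspa5), Grp94 (Hsp90b1), calnexin (Canx), calreticulin (Calr) and disulphide isomerases such as Pdia4, and the transcription factors XBP1 and ATF6 raise their genes through the endoplasmic reticulum stress response element (ERSE). In the cytosol, heat shock factor 1 acts through heat shock elements (HSE) on Hsp70 proteins and their J-domain partners. Promoters that carry these elements are shown because most of the chaperone genes described next are known through them.

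RefSeq promoter windows (GRCr8, 250 bases before to 50 bases after the start) were searched on both strands for CCAAT followed after any 9 bases by CCACG (ERSE), and for TTC, GAA and TTC with any 2 bases between neighbours (HSE), and capitals mark the matches. The sequences run 5′ to 3′ along the gene.
Hspa5, chr3:38452766-38453065, plus strand: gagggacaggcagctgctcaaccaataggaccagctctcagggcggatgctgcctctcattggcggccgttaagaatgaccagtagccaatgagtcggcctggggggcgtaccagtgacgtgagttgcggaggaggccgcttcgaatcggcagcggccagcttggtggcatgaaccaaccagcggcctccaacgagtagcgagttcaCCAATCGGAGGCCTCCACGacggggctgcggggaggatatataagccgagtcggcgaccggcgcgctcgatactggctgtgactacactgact
Hsp90b1, chr7:23012244-23012543, minus strand: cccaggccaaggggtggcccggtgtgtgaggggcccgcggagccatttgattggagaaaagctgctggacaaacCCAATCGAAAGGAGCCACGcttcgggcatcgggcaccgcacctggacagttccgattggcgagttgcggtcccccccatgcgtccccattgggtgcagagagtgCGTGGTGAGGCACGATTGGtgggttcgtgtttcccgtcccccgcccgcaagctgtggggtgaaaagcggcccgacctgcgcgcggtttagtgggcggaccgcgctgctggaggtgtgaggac
Calr, chr19:40213117-40213416, plus strand: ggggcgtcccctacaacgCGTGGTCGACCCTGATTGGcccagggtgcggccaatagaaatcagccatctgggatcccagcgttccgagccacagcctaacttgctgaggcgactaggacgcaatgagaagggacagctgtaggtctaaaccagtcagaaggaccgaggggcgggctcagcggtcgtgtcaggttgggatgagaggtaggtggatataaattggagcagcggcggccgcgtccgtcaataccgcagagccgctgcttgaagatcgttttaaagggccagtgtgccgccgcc
Canx, chr10:35157808-35158107, minus strand: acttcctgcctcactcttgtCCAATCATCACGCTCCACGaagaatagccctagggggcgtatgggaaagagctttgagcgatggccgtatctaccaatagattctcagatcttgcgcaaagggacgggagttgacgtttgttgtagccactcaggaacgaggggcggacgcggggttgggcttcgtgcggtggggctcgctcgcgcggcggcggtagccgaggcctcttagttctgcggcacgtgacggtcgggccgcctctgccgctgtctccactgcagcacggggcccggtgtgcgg
Xbp1, chr14:84604373-84604672, plus strand: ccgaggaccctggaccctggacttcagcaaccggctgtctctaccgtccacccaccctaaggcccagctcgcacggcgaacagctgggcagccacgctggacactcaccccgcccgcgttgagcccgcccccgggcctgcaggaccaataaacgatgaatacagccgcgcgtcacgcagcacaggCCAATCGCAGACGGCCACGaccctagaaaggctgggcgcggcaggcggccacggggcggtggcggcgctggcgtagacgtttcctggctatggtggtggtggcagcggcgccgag
Dnaja1, chr5:60638154-60638453, plus strand: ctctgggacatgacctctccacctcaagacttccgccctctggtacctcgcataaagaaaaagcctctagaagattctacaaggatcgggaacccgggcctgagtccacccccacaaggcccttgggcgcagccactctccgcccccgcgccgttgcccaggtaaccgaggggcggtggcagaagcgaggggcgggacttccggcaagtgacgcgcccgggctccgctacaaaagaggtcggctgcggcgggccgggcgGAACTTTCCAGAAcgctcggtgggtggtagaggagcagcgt

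The ERSE letters were found in 22 of 33469 promoter windows (0.0657%) and in 8 of the 24 endoplasmic reticulum genes with a window (Calr, Canx, Creld2, Derl3, Dnajc3, Hsp90b1, Hspa5 and Xbp1). Hsp90b1 held 2 matches, beginning 176 and 72 bases before the start, and the match of Hspa5 began 43 bases before it. The HSE letters were in 267 windows (0.798%) and in 7 of 29 cytosolic chaperone genes (Cct4, Chordc1, Dnaja1, Hspa8, Hspd1, Hspe1 and Hsph1). These matches describe letters and not binding.

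Of the 17 endoplasmic reticulum chaperone and unfolded protein response genes named by level, 5 (29.4%) were lower and 0 higher at an unadjusted p below 0.05, beside 5.61% lower in the background. The signs were negative in 15 of 17, with a median log2 fold change of -0.12 and -0.13 to -0.10 under the other scalings. Hsp90b1 (ENSRNOG00000026963) was at 203 to 239 TPM (median 225) in lean and 171 to 212 TPM (median 180.1) in obese rats (log2 fold change -0.27, SE 0.07, adjusted p = 0.194). Only obese rat 8, at 212 TPM, reached into the lean range. Canx was at 231 to 280.3 TPM (median 238) in lean and 196 to 229.6 TPM (median 222) in obese rats, without overlap between the groups (log2 fold change -0.17, SE 0.06, adjusted p = 0.362). Hspa5 was at 352 to 504 TPM (median 449.9) in lean and 316 to 419.7 TPM (median 385) in obese rats and Calr was at 431 to 499 TPM (median 485) in lean and 385 to 465 TPM (median 418) in obese rats. Both overlapped, with log2 fold changes of -0.21 and -0.17. Pdia4, whose window held neither motif, was at 36.4 to 46.2 TPM (median 43.4) in lean and 32.4 to 42.2 TPM (median 34.9) in obese rats (log2 fold change -0.26, SE 0.08, adjusted p = 0.283). The count of lower genes was 4 after rescaling without Ttr and 8 after quantile normalization. It was 7 with median-of-ratios factors and after rescaling without Ttr and the mitochondrial genome, and 4 to 7 when single rats were left out. Without obese rats 7 and 12 it was 5, and without lean rats 1 and 2 it was 8. The whole list summed to 3074 to 3457 TPM in lean and 2862 to 3156 TPM in obese rats.

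Xbp1, which is itself a target of the same response, differed in the other direction. It was at 21.0 to 29.0 TPM (median 23.8) in lean and 27.5 to 40.4 TPM (median 29.8) in obese rats (log2 fold change 0.38, SE 0.11, adjusted p = 0.276), with obese rats 7 and 12 highest, at 38.8 and 40.4 TPM. It is a study-called gene, and its window carries the ERSE letters 65 bases before the start, as shown above. The genes shown with an ERSE were thus not all lower.

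Of the 22 cytosolic heat shock genes named by level, 2 were higher and 2 were lower (9.09% each, beside 3.48% and 5.61%). The constitutive Hsp70 gene Hspa8 was at 345 to 415 TPM (median 393) in lean and 400.5 to 583 TPM (median 466) in obese rats (log2 fold change 0.27, SE 0.09, adjusted p = 0.326), and its J-domain partner Dnaja1 was at 148 to 195 TPM (median 174) in lean and 172 to 230.2 TPM (median 213) in obese rats (log2 fold change 0.28, SE 0.09, adjusted p = 0.283). In Hspa8 obese rats 7, 11 and 12 were at 511 TPM or more, and the other 3, at 400.5 to 422 TPM, stood close to the highest lean rats. On the other side, the cytosolic Hsp90 gene Hsp90aa1 was at 399 to 499.6 TPM (median 453) in lean and 356 to 455 TPM (median 394) in obese rats and Cacybp, a partner of the ubiquitin ligase SIAH1, was at 142 to 167 TPM (median 147) in lean and 121 to 150.3 TPM (median 130.3) in obese rats. Of the 4 genes outside this count, 3 had higher means and 1 a lower mean. The study-called Chordc1, an Hsp90 co-chaperone, was at 9.3 to 16.6 TPM in lean and 14.6 to 20.5 TPM in obese rats. Dnajb1, also study-called, was at 22.0 to 31.4 TPM in lean and 28.6 to 36.8 TPM in obese rats, and Ahsa2, named through the injected rats, was at 3.39 to 5.36 TPM in lean and 5.06 to 8.16 TPM in obese rats. Fkbp4, a study-called Hsp90 co-chaperone, had a lean mean of 31.4 TPM and an obese mean of 28.6 TPM. Without obese rats 7 and 12, 1 of the 22 was higher and 1 lower.

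**Figure D3:**
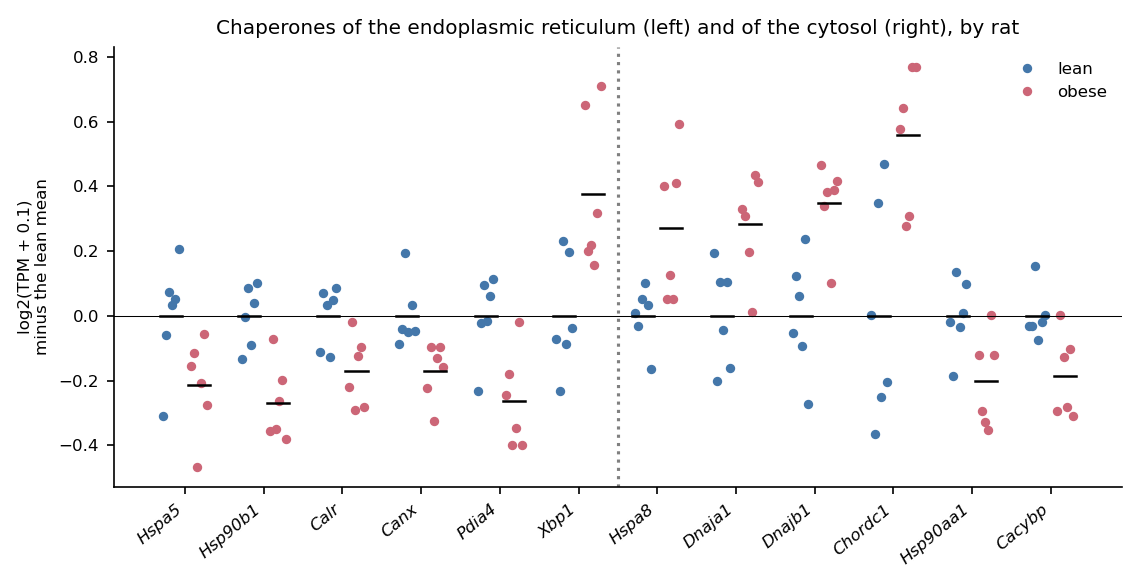
Log2(TPM + 0.1) of each rat minus the lean mean (y axis) for 12 chaperone and stress genes (x axis), lean rats in blue, obese rats in red, group means as bars. The 5 endoplasmic reticulum chaperones at the left lay lower in the obese rats, while Xbp1, Hspa8, Dnaja1, Dnajb1 and Chordc1 lay higher and Hsp90aa1 and Cacybp lower.

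The mitochondrial genome encodes 13 proteins of the respiratory chain, and the rest of the chain is encoded in the nucleus. Of the 13 genes, 6 (46.2%) were lower and 0 higher at an unadjusted p below 0.05, with a median log2 fold change of -0.11. The complex I subunit gene Mt-nd1 was at 6266 to 7805 TPM (median 6846) in lean and 5236 to 6842 TPM (median 5586) in obese rats (log2 fold change -0.26, SE 0.07, adjusted p = 0.263), and Mt-nd2 was at 3052 to 4148 TPM (median 3402) in lean and 2447 to 3274 TPM (median 2946) in obese rats (log2 fold change -0.30, SE 0.09, adjusted p = 0.283). Obese rat 10 lay inside the lean range in both genes, and obese rats 11 and 12 did in Mt-nd2. Mt-nd4l, Mt-atp8, Mt-co1 and Mt-co2 had log2 fold changes of -0.23, -0.19, -0.14 and -0.11, and Mt-cyb had 0.05. Some of these genes overlap on the mitochondrial genome, so reads can be shared between neighbours. The 13 genes took 8.57 to 9.39% of all TPM in the lean and 7.76 to 8.67% in the obese rats. After quantile normalization, which fixes the values of the most abundant ranks, the median was -0.02, 3 of the 13 were lower and Mt-co1 turned to 0.02.

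The nuclear genes of the same chain showed no such count. Of 34 complex I genes and 39 genes of complexes II to V, 0 were lower or higher at an unadjusted p below 0.05, with medians of 0.01 and 0.03. Mitochondrial ribosomal protein genes were higher in 2 of 37 (0 without lean rats 2 or 6 or obese rat 12), and fatty acid oxidation genes in 0 of 17. After rescaling without Ttr, 5 of the genes of complexes II to V and 4 of the fatty acid oxidation genes were higher. The count of higher genes among all genes tested also rose under that rescaling, so these counts are not particular to the 2 lists.

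Most cytosolic ribosomal protein genes had higher means in the obese rats. Of 75, 11 (14.7%) were higher and 0 lower at an unadjusted p below 0.05, beside 3.48% higher in the background, and 72 of the 75 had a positive fold change with a median of 0.09. Rps21 (ENSRNOG00000060449) was at 508 to 642 TPM (median 601) in lean and 624 to 849.7 TPM (median 805) in obese rats (log2 fold change 0.39, SE 0.09, adjusted p = 0.182), and only obese rat 12 was below the highest lean rat. Rps9 was at 446 to 507 TPM in lean and 487 to 581 TPM in obese rats. Rpl8 had the largest fold change of the family, 0.98 (SE 0.34, adjusted p = 0.352), and was at 39.5 to 189 TPM (median 169) in lean and 175 to 354 TPM (median 214) in obese rats, but lean rats 1 and 5, at 39.5 and 73.3 TPM, stood far below the other lean rats. The most abundant member, Rpl41, was at 3554 to 4496 TPM in lean and 3776 to 4818 TPM in obese rats. The family has many processed pseudogenes that can take its reads. It took 4.49 to 5.48% of all TPM in the lean and 4.8 to 5.98% in the obese rats, and the count of higher genes depended on the rats and the scaling. It was 5 without lean rat 6, 5 without obese rat 9, 6 without obese rat 8, 7 without lean rat 3 and 20 without obese rat 10, and it was 6 without obese rats 7 and 12 and 7 without lean rats 1 and 2. It was 10 with median-of-ratios factors, 31 after rescaling without Ttr, 21 after rescaling without Ttr and the mitochondrial genome and 20 after quantile normalization. The background of 3.48% does not apply to these scalings, and higher genes among all genes tested also rose in number after rescaling without Ttr.

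**Figure D4:**
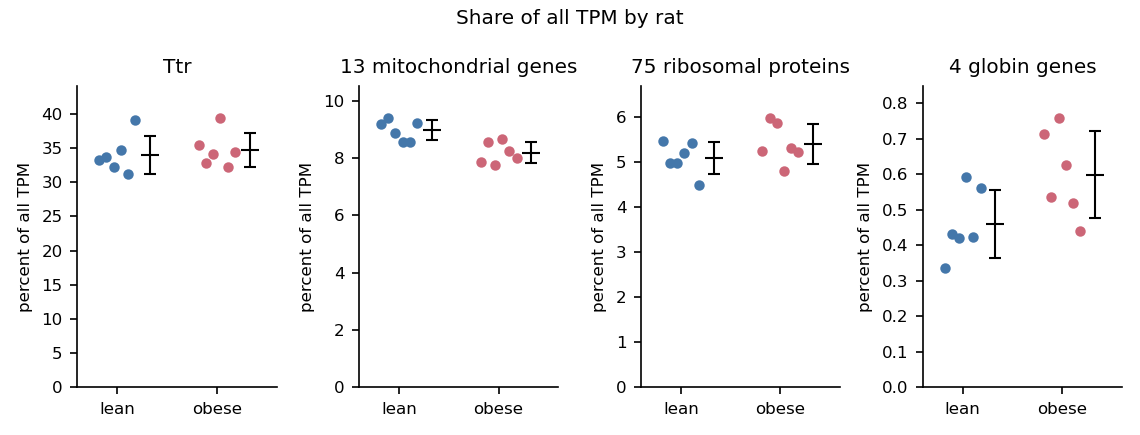
Share of all TPM (y axis, percent, from 0) taken by Ttr, the 13 mitochondrial genes, the 75 ribosomal protein genes and 4 globin genes in 6 lean (blue) and 6 obese (red) rats, with mean and SD. The mitochondrial share was lower in obese rats (7.76 to 8.67% against 8.57 to 9.39%), the globin share higher (0.44 to 0.757% against 0.337 to 0.591%), and all 4 shares overlapped.

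Metallothioneins, small proteins that bind zinc and copper and whose genes answer to metals and glucocorticoids, had lower means. Mt1 was at 168 to 272 TPM (median 196) in lean and 108 to 212 TPM (median 149) in obese rats (log2 fold change -0.50, SE 0.15, adjusted p = 0.266) and Mt2A was at 97.3 to 257 TPM (median 172) in lean and 52.6 to 187 TPM (median 98.6) in obese rats (log2 fold change -0.78, SE 0.31, adjusted p = 0.433). Obese rat 12 was the highest obese rat in both genes and lay well inside the lean range, as did obese rats 7 and 9 in Mt2A. The brain form Mt3 was at 265 to 349 TPM in lean and 218 to 289.9 TPM in obese rats. These were the 3 lower ones of the 9 genes of iron handling and metallothioneins, and the count was 1 without lean rat 2 and 1 without obese rat 10. The ferritin heavy chain gene Fth1 was the 1 higher member, at 1487 to 1728 TPM in lean and 1562 to 2027 TPM in obese rats (log2 fold change 0.14), and the count of higher genes was 0 after quantile normalization and without any single rat other than obese rats 10 and 11. Mt1 and Mt2A are also among the 6 glucocorticoid-responsive genes named, of which 3 were lower. The other was Sgk1, the kinase that regulates sodium channels, at 132 to 265 TPM (median 162) in lean and 110.0 to 152 TPM (median 126) in obese rats (log2 fold change -0.48, SE 0.14, adjusted p = 0.265), where lean rat 2 was highest at 265 TPM. The other 3 genes of the list had positive signs.

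Insulin and lipid genes were followed because the obese rats are hyperphagic. Of 6 insulin and IGF genes, 2 were lower and 0 higher, while 2 were lower and 2 higher under each of 4 other scalings. Igfbp3, which carries IGF1 in plasma, was at 54.2 to 67.7 TPM (median 58.9) in lean and 41.6 to 55.1 TPM (median 49.3) in obese rats (log2 fold change -0.30, SE 0.08, adjusted p = 0.228), with obese rat 9 alone above the lowest lean rat, and the insulin-responsive kinase gene Akt2 was at 39.8 to 51.0 TPM (median 45.2) in lean and 32.03 to 46.2 TPM (median 34.9) in obese rats (log2 fold change -0.30, SE 0.09, adjusted p = 0.283). The abundant Igfbp2 was at 3181 to 3809.6 TPM in lean and 3673 to 4479.8 TPM in obese rats. Of 12 genes of fatty acid uptake, synthesis and storage, 3 were lower. They were Srebf1, the transcription factor that drives fatty acid synthesis (59.8 to 99.7 TPM in lean and 46.0 to 80.8 TPM in obese rats, log2 fold change -0.40), the acyl-CoA synthetase gene Acsl3 (44.4 to 63.0 TPM in lean and 34.7 to 52.7 TPM in obese rats, -0.35) and lipoprotein lipase, Lpl (56.0 to 69.4 TPM in lean and 36.7 to 67.5 TPM in obese rats, -0.28). Of 10 cholesterol genes, 0 passed, and the spread was wide. Insig1, which holds SREBP in the endoplasmic reticulum, was at 30.5 to 92.2 TPM (median 63.8) in lean and 23.8 to 99.8 TPM (median 34.7) in obese rats, and the highest of all 12 rats was obese rat 12. Without obese rats 7 and 12, 3 of the 10 were lower. Among 17 glycolysis genes, Ldha (lactate dehydrogenase A) was the 1 that passed, at 204 to 261 TPM (median 245) in lean and 219.8 to 374 TPM (median 292) in obese rats (log2 fold change 0.32, SE 0.11, adjusted p = 0.353). The count was 2 without lean rat 3, 4 without obese rat 10 and 2 to 4 under 4 other scalings. P4ha2, a collagen prolyl hydroxylase on the list of hypoxia-responsive genes, was at 26.4 to 39.6 TPM in lean and 33.1 to 47.1 TPM in obese rats, the 1 of 7 that passed. No gene of that list was higher without lean rats 1, 4 or 6 or obese rats 7, 11 or 12 one at a time.

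Of 21 genes of CSF secretion, 5 (23.8%) were lower and 0 higher at an unadjusted p below 0.05, with 18 negative signs and a median of -0.08. Beside Sgk1, Ca12 and Slc4a5 they were the potassium channel gene Kcnk1 (91.6 to 112 TPM in lean and 81.7 to 97.1 TPM in obese rats) and the carbonic anhydrase gene Ca14 (183 to 252 TPM in lean and 163 to 209.8 TPM in obese rats, log2 fold change -0.20, SE 0.09, adjusted p = 0.484). The obese mean of Ca12, Slc4a5, Kcnk1 and Ca14 was between 12.8 and 16.1% below the lean mean, and that of Sgk1 was 29.6% below it. The count was 3 without obese rat 8 and 3 to 6 over all rats left out singly, 4 without obese rats 7 and 12 and 3 without lean rats 1 and 2. The tight junction genes Cldn1 (claudin 1) and Ocln (occludin) were the 2 lower genes among 8 of junctions and polarity. Cldn1 was at 125 to 168 TPM in lean and 112 to 145 TPM in obese rats, and Ocln was at 52.9 to 67.9 TPM in lean and 46.6 to 58.9 TPM in obese rats. Cldn2, the pore-forming claudin, was at 465 to 572 TPM in lean and 449 to 533 TPM in obese rats (log2 fold change -0.12, SE 0.06, adjusted p = 0.562).

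Among 50 solute carriers named by level, 7 (14%) were lower and 0 higher, and 35 had a negative sign. The lower count was 11 without obese rat 11 and 5 to 11 over all rats left out singly. Beside Slc29a4, Slc20a2 and Slc4a5 these were the thyroxine transporter gene Slco1c1, the glutamine transporter gene Slc38a3 (135 to 166 TPM in lean and 101 to 163 TPM in obese rats), the reduced folate carrier gene Slc19a1 (95.1 to 117 TPM in lean and 88.4 to 102 TPM in obese rats) and the copper importer gene Slc31a1 (323 to 419.9 TPM in lean and 272 to 372 TPM in obese rats). Solute carriers known by name only because the study had called them were higher in 3 of 4. The list of thyroid hormone and retinoid handling gave 3 of 11 lower. Slco1c1 was at 158 to 221 TPM (median 170.0) in lean and 124 to 169 TPM (median 146) in obese rats (log2 fold change -0.29, SE 0.09, adjusted p = 0.309). The retinaldehyde reductase gene Dhrs3 was at 61.3 to 77.7 TPM (median 72.5) in lean and 52.1 to 68.1 TPM (median 57.7) in obese rats (log2 fold change -0.28, SE 0.08, adjusted p = 0.256). Rlbp1, of the retinaldehyde-binding protein CRALBP, was at 81.7 to 96.4 TPM (median 88.9) in lean and 42.5 to 87.2 TPM (median 69.6) in obese rats (log2 fold change -0.41, SE 0.13, adjusted p = 0.317). In Rlbp1 only obese rat 11, at 87.2 TPM, lay inside the lean range. The study-called members were Rarg, a retinoic acid receptor (2.72 to 4.02 TPM in lean and 3.6 to 5.33 TPM in obese rats), and Hr, the thyroid hormone-responsive corepressor hairless (3.84 to 5.07 TPM in lean and 1.53 to 4.74 TPM in obese rats), with log2 fold changes of 0.55 and -0.77. Without lean rats 1 and 2 the median of this list was -0.00 in place of -0.10.

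Of 17 secreted growth factors and CSF proteins, 3 were lower. Cst3, the gene of the protease inhibitor cystatin C and the second most abundant transcript, was at 42426 to 48046 TPM (median 43608) in lean and 35881 to 41963 TPM (median 40005) in obese rats, without overlap (log2 fold change -0.16, SE 0.05, adjusted p = 0.309). Its exact two-sided permutation p was 0.00216, the smallest that 6 rats against 6 allow. Every gene without overlap has this p-value, so it adds nothing to the lack of overlap. The fold change of Cst3 was 0.00 after quantile normalization. That scaling fixes the values of the most abundant ranks, so it says little about a gene of this rank. The morphogen gene Bmp7 was at 47.4 to 63.5 TPM (median 55.2) in lean and 35.7 to 52.0 TPM (median 41.5) in obese rats (log2 fold change -0.37, SE 0.09, adjusted p = 0.212), with obese rat 11 alone in the lean range, and the Wnt modulator gene Dkk3 was at 64.8 to 86.6 TPM in lean and 56.9 to 68.8 TPM in obese rats. The study-called Bmp4 was at 7.58 to 14.4 TPM in lean and 5.69 to 8.84 TPM in obese rats. Signs within the list were mixed, 7 positive and 10 negative.

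Of 6 interferon-stimulated genes, 3 had positive log2 fold changes, up to 0.24, and 3 were lower at an unadjusted p below 0.05. Ifi27 was at 125 to 188 TPM (median 167) in lean and 103.5 to 152 TPM (median 125) in obese rats (log2 fold change -0.36, SE 0.10, adjusted p = 0.263), B2m, the light chain of class I histocompatibility molecules, was at 587 to 677 TPM in lean and 559 to 621 TPM in obese rats, and Bst2 (tetherin) was at 119 to 168 TPM in lean and 107 to 148 TPM in obese rats. Without lean rat 5, 1 of the 6 was lower, and without lean rat 2, 1 was lower and 1 higher. Without obese rats 7 and 12, 1 of the 6 was lower, and without lean rats 1 and 2, 1 was lower and 1 higher. The class I gene RT1-CE5 was at 56.4 to 96.5 TPM (median 67.5) in lean and 25.5 to 60.5 TPM (median 50.4) in obese rats (log2 fold change -0.60, SE 0.18, adjusted p = 0.283), but class I genes are near-copies that differ between animals, and reads may be assigned among them. Of the 6 histocompatibility genes named by level, 1 was lower, and the signs were 3 positive and 3 negative. RT1-A2 was at 44.1 to 191 TPM in lean and 68.2 to 355 TPM in obese rats, with a log2 fold change of 0.66 (SE 0.44, adjusted p = 0.661). Cd74, the class II invariant chain, was higher, at 134 to 171 TPM (median 161) in lean and 165 to 218 TPM (median 176) in obese rats (log2 fold change 0.20, SE 0.08, adjusted p = 0.405), with obese rats from 165 TPM upwards against a lean maximum of 171 TPM. It did not pass without lean rat 5 or without obese rat 12. The complement inhibitor gene Cd59 was at 598 to 685 TPM in lean and 531 to 615 TPM in obese rats.

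Of 32 splicing factors and RNA-binding proteins, Srsf5 and Cirbp were lower and Srsf3 and Tra2b were higher at an unadjusted p below 0.05 (6.25% each way, near the background of 5.61% and 3.48%). The higher count was 0 without obese rat 7, without obese rat 12 and without lean rats 1 and 2, and the lower count was 4 without lean rat 6. Cirbp, the cold-inducible RNA-binding protein, was at 34.2 to 63.4 TPM (median 46.6) in lean and 27.1 to 37.7 TPM (median 32.8) in obese rats (log2 fold change -0.52, SE 0.13, adjusted p = 0.196). Lean rat 5 was the only lean rat below the highest obese rat. Srsf3 was at 60.6 to 73.4 TPM in lean and 66.6 to 87.3 TPM in obese rats and Tra2b was at 40.9 to 51.6 TPM in lean and 43.7 to 57.2 TPM in obese rats. Single members of other lists passed too. The collagen chaperone gene Serpinh1 was at 96.3 to 136 TPM (median 101) in lean and 116 to 163 TPM (median 135) in obese rats (log2 fold change 0.36, SE 0.11, adjusted p = 0.277), the cell cycle inhibitor gene Cdkn1a was at 171 to 256 TPM in lean and 137 to 219.8 TPM in obese rats, the thioredoxin gene Txn1 was at 163 to 281 TPM in lean and 238 to 291 TPM in obese rats, the glutathione transferase gene Gstm1 was at 113 to 143 TPM in lean and 96.2 to 127 TPM in obese rats and the mitophagy kinase gene Pink1 was at 83.8 to 105 TPM in lean and 69.8 to 90.2 TPM in obese rats. Txn1 and Serpinh1 were higher and Cdkn1a, Gstm1 and Pink1 lower in the mean of the obese rats. In the proteasome (34 genes), the lysosome and proton pump (33), translation factors (31), and sex steroid receptors and enzymes (3), 0 genes passed in either direction. In the first 3 of these lists up to 3 genes passed under other scalings. Of the antioxidant genes to which Txn1 and Gstm1 belong, the 1 higher gene was lost in 7 and the 1 lower gene in 8 of the 12 fits that left out 1 rat.

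The injected rats gave values for the same genes in animals that did not enter the choice of them, apart from Cdc25b, which was named through these rats. The obese rats there also received testosterone and the lean rats sesame oil, so obesity and testosterone cannot be told apart in that contrast. Of the 28 named genes with the smallest p-values among those without overlap in the untreated rats (13 higher and 15 lower), 14 (50%) had the same sign in the injected rats, beside 48.9% of all 11986 genes. Of all 65 genes without overlap, 37 (56.9%) had the same sign, and without Lean + VEH rat 14, 29 (44.6%) did. That rat differed most from the others of its group, with a root mean square log2 difference from their mean of 0.571, against 0.441 to 0.496 for the other 3. The share of named genes without rat 14 was 42.9%. Both the same sign and an unadjusted p below 0.05 in limma were found for 5 of the 28 (17.9%), beside 4.04% of all genes (8.28% of all genes had such a p with either sign). Cdc25b is among these 5. At the same time 18 of the 28 (64.3%) differed between the untreated and injected contrasts at an unadjusted p below 0.05, beside 8.57% of all genes. The choice itself raises that share, since the difference contains the untreated values by which these genes were chosen. It was 44.6% among the 65 genes without overlap. Among all genes at an unadjusted p below 0.05 in the untreated rats, it was 38.6% of the higher and 34.2% of the lower ones. The share therefore cannot show that the 28 genes differ between the cohorts. Igsf1 had 0.41 on the log2 scale in the injected rats, close to its 0.45 in the untreated ones, Slc29a4 had -0.64, Cxcl17 -0.54, Cacna2d2 -0.81 and Cdc25b 0.85. Cdc25b has a symbol here because the study called it in the injected rats, so its value there is no independent evidence. It is nevertheless counted among the 14 and among the 5, so both shares rest partly on it. Eva1a had 0.24, AY172581.24 0.48 and Prim1 0.35, with the opposite sign.

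**Figure D5:**
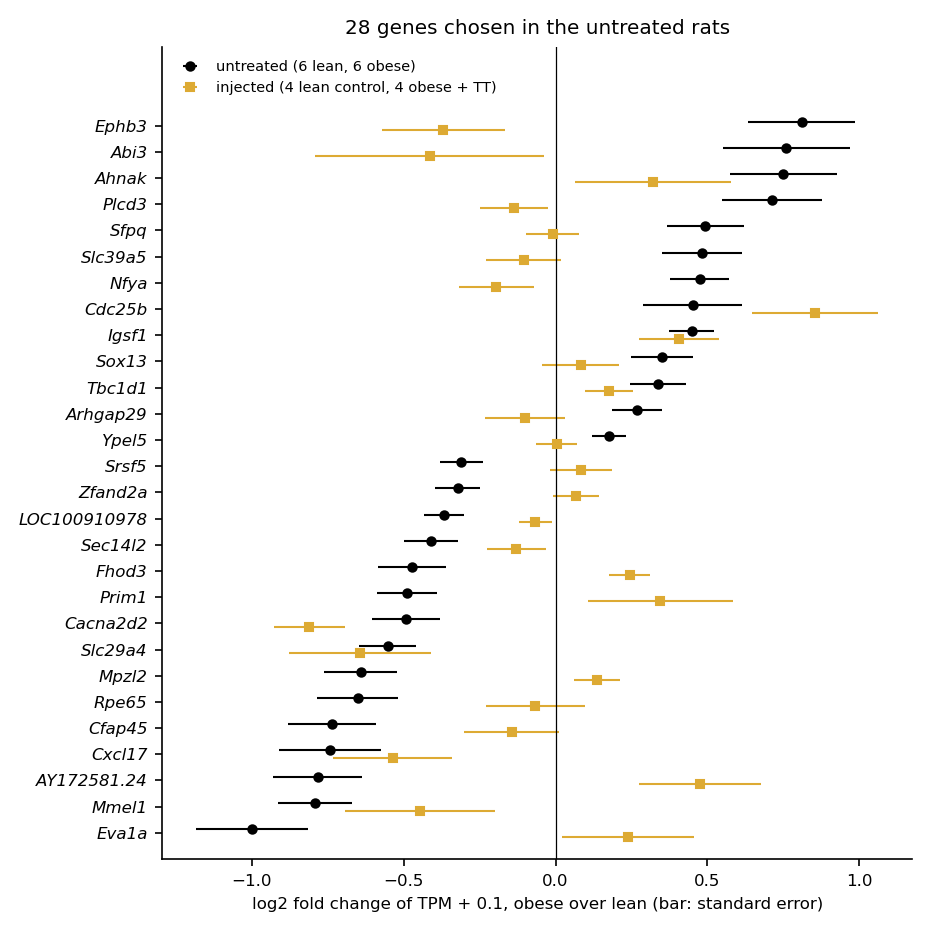
Log2 fold change with standard error (x axis, obese over lean) of the 28 named genes without overlap in the untreated rats (black circles, 6 and 6 rats), with the same genes in the injected rats (yellow squares, 4 and 4 rats). The sign was the same in 14 of 28.

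The difference between the contrasts was tested in all 20 rats and passed an adjusted p of 0.05 in 1 gene (0.00834% of those tested). Bicdl1 (ENSRNOG00000056955), a dynein adaptor of vesicle transport and a study-called gene, was at 12.6 to 19.5 TPM (median 14.9) in lean and 19.1 to 27.5 TPM (median 23.7) in obese rats (log2 fold change 0.62, SE 0.12, adjusted p = 0.098) and had a log2 fold change of -0.53 in the injected rats. The contrasts differed by 1.15 (adjusted p = 0.0468). No gene passed with a minimum of 0.1 TPM or none, without the trend, with array weights or without lean rats 1, 2, 3 or 4 or obese rats 7, 8, 11 or 12 one at a time. For the groups described above, the injected medians were -0.14 for the endoplasmic reticulum chaperones, 0.03 for the mitochondrial genome, 0.01 for the ribosomal proteins, 0.02 for CSF secretion, 0.06 for the solute carriers and 0.90 for the globins, and these differences between lists were not tested.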

How the data were processed

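RNA of 1 choroid plexus library per rat was sequenced by the authors as paired 150 base reads, mapped with STAR 2.7.9a to Rnor_6.0 (Ensembl 104) and deposited as TPM per gene. RSEM 1.3.3 stands in the submitters' processing notes, and the program that made the TPM is not given in the sources used here. Depth is unknown, since TPM keeps no counts, so no counting interval is given. An exact 0 can be a failed estimate.

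Genes averaging 1 TPM or more in the 12 rats were fitted as log2(TPM + 0.1) in limma 3.58.1 (R 4.3.3) with a trend and Benjamini-Hochberg adjustment at 0.05. The methods of the study used a count model, which TPM does not allow. A fold change on the log2(TPM + 0.1) scale understates changes of low genes. The difference between the untreated and injected contrasts was fitted in all 20 rats. Single genes were also tested by an exact two-sided permutation test over 924 splits. Rats are separate animals. Of 30 pairs of rats within a group, none shared more than 0.709% identical values. The labels give no batch.

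Symbols came from the sheets of names that accompany the study, of which no value was used. Members and the 45 lists and 20 families of genes were chosen with earlier results of these data known. Named genes were the 15 higher and 15 lower genes with the smallest p among named genes without overlap, the 4 members of each list with the smallest p and the 2 with the highest TPM, Lepr, the 15 most abundant genes and genes with an adjusted cohort difference. RGD1561113, Lmx1a, Ndrg2, Vim, Phlda3, Itgb8, Lmna, AY172581.9, Lgals1, Hspa5, Hsp90aa1, Cacybp, Ahsa2, Ca14, Slc38a3, Slc19a1, Slc31a1 and Rlbp1 were chosen after their values were seen.

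Each result was recomputed with other pseudocounts, TPM minimums, scalings, variance models and rats left out. On simulated data the fit recovered 49% of 200 genes changed by 0.5 and 93.5% of those changed by 1 (log2) among 11986 genes. Noise was drawn for each gene separately, so shifts shared by many genes within a rat were not simulated. Recovery in the real data may therefore be lower. Promoters are RefSeq windows of 300 bases (GRCr8).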

Additional observations from a re-analysis of the deposited data

Results flagged for a closer look

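In 18 of 262 groups of 6 rats checked, the highest or lowest rat stood apart from its group by Dixon's 95% criterion, where chance gives about 13.1. Lean rat 2 was high in RGD1561113 (108.5 TPM, others 51.7 to 63.4 TPM), Lmx1a (68.3, others 53.9 to 58.9 TPM) and Gstm1 (143, others 113 to 123 TPM), and low in Ahsa2 (3.39, others 5.09 to 5.36 TPM). Lean rat 6 was low in Igsf1 (56.8, others 65.1 to 68.5 TPM), Tbc1d1 (7.73, others 9.31 to 10.2 TPM), Fth1 (1487, others 1640.4 to 1728 TPM) and Igfbp2 (3181, others 3674 to 3809.6 TPM). Lean rat 5 was high in Phlda3 (74.7, others 48.0 to 57.9 TPM) and Rarg (4.02, others 2.72 to 3.05 TPM). Lean rat 3 was high in Cacybp (167, others 142 to 150.2 TPM), and lean rat 1 was low in Itgb8 (47.9, others 63.3 to 72.1 TPM).

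Among the obese rats, rat 12 was high in Nfya (6.46, others 5.47 to 5.76 TPM) and Insig1 (99.9, others 23.8 to 46.7 TPM). Obese rat 11 was high in Ca12 (474, others 373 to 388 TPM) and Cdkn1a (219.8, others 137 to 156 TPM). Obese rat 7 was high in Abi3 (1.94, others 1.47 to 1.64 TPM), and obese rat 10 was low in Tra2b (43.7, others 53.1 to 57.2 TPM).

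Bicdl1 differed between the untreated and the injected contrasts by 1.15 on the log2 scale (limma, adjusted p = 0.0468). No gene passed without lean rats 1, 2, 3 or 4 or obese rats 7, 8, 11 or 12 one at a time, nor with a minimum of 0.1 TPM or none, without the trend or with array weights.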

How the results depend on the processing

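No paired analysis was possible because the rats carry distinct numbers and no label ties a lean rat to an obese rat. The count of genes with an adjusted p-value below 0.05, which was 0 (1185 at an unadjusted p below 0.05), became 8 with a minimum of 10 TPM, 3 in a fit of all 20 rats, 1 after rescaling without Ttr, 1 with median-of-ratios factors, 1 without lean rats 1 and 2, and 0 to 1 when single rats were left out. The 8 genes with the higher minimum included Igsf1, Slc29a4, LOC100910978, Mpzl2, AY172581.24, Bicdl1 and RGD1561113. The minimum tests fewer genes, and for the others the cause was not tested. The 735 higher genes at an unadjusted p below 0.05 became 305 with a minimum of 10 TPM, 1157 after rescaling without Ttr, 453 without obese rats 7 and 12, 479 without lean rats 1 and 2, and 516 to 999 when single rats were left out. The 450 lower genes became 264 with a minimum of 10 TPM, 818 after quantile normalization and 331 to 679 when single rats were left out, the most without lean rat 6. Leaving out pairs of rats was chosen after seeing the data.

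The count of 1 gene with a difference between the untreated and injected contrasts became 2 with a pseudocount of 0.01, 0 with a minimum of 0.1 TPM, 0 with no minimum, 0 without the trend, 0 with array weights, 11 after rescaling without Ttr, 10 without Ttr and the mitochondrial genome, 2 with median-of-ratios factors, 14 after quantile normalization, 0 without obese rats 7 and 12, 0 without lean rats 1 and 2, and 0 to 2 when single rats were left out. Of the named genes, 2 changed sign, Mt-co1 to 0.018 after quantile normalization and Ttr to -0.0067 without obese rat 10, with a range of -0.0067 to 0.071 for Ttr when single rats were left out. The median over the mitochondrial genome moved to -0.02 after quantile normalization, and that over thyroid hormone and retinoid handling to -0.00 without lean rats 1 and 2. Of the other values for single genes and lists, 4576 had the same sign and side of the threshold or moved within the spread, and 13, all of the 7 genes named above for the higher minimum, passed the threshold under an alternative.

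With 6 rats a group, the simulated recovery limits what a missed threshold shows at log2 differences of 0.5, and most differences described were smaller. Depth is unknown.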
